A study of Homo sapiens with 12 samples.

Results

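The comparison set TAF5-depleted cells that expressed TAF5 without exon 8 against TAF5-depleted cells with no add-back, at every gene of the deposited table. It used 6 of the 12 libraries, chosen by their titles: 3 labelled as depleted of TAF5 and 3 labelled as depleted and expressing the shorter TAF5. HEK293 Flp-In is a human embryonic kidney line with a docking site for single-copy transgenes. All cells carried an siRNA, polyadenylated RNA was sequenced with a stranded kit, and the study asked if exon 8 of TAF5 has a part in gene regulation. The knockdown group (siTAF5) received 1 siRNA against TAF5. The ΔE8 group received the same siRNA, and 24 h later doxycycline for 48 h induced an siRNA-resistant TAF5 without exon 8. Beside them stand the FL group (3 libraries) and the siNT group with a non-targeting siRNA (3 libraries). FL had the same siRNA and doxycycline times as ΔE8, but full-length TAF5 and another dose. The labels do not say in which line the siNT and siTAF5 cells were grown, nor whether a line was 1 clone. The treatment label names doxycycline for every group. FL and ΔE8 were induced with different doses, in a notation whose exponent seems lost. They are therefore not printed, and the isoform and the dose cannot be told apart.

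TFIID, built from the TATA-binding protein TBP and the TBP-associated factors (TAFs), recognises core promoters and helps RNA polymerase II to assemble there. TAF5 is one of its scaffold subunits: it holds an amino-terminal domain and a carboxy-terminal WD40 propeller, a ring of repeats that contacts the histone-fold pair TAF6 and TAF9. A related protein, TAF5L, takes its place in SAGA, a coactivator that modifies histones.

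Exon 8 is the part of the transgene that sets ΔE8 apart from FL, and its bases are shown for that reason. In the 11-exon transcript TAF5-201 of GENCODE release 29 it lies at chr10:103385326-103385490 (hg38, + strand). It holds 165 bases, all coding, which begin after 1664 of the 2400 coding bases. Its loss removes 55 codons, or 6.88% of the coding sequence, and keeps the reading frame. The first line below gives exon 8 in capitals between the 15 transcript bases before and after it, and the second gives the junction that remains without it, with the bases of exon 9 in capitals.
TAF5 exon 8: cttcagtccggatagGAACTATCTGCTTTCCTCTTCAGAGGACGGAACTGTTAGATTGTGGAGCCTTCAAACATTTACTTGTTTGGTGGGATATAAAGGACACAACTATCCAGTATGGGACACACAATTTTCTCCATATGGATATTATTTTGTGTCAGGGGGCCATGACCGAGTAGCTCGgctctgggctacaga
TAF5 without exon 8: cttcagtccggatagGCTCTGGGCTACAGA

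The 6 libraries held 41.8 to 61.2 M estimated counts, within the 41.8 to 62.5 M of all 12. Values are CPM, that is counts scaled to a common library size. On the first principal component (34.5% of the variance) and the second (19%) the 4 groups did not overlap and no library stood apart from its group. Of the counts, mitochondrially encoded genes took 0.87% to 0.969% in ΔE8 and 1.01% to 1.107% in siTAF5. Cytosolic ribosomal protein genes took 6.88% to 7.12% in ΔE8 and 7.35% to 7.51% in siTAF5. All 12 HEK293 markers checked were measured, among them VIM (1370 to 1420 CPM by library total in siTAF5 and 1510 to 1560 in ΔE8) and the kidney factor PAX2 (6.13 to 6.75 and 5.02 to 5.8). Of 9 blood markers 8 were under 1 CPM in every library of both groups, of 9 fibroblast markers 6, and of 9 markers of keratin-rich epithelium 3 (KRT5, KRT14 and KRT7). The remaining blood marker, HBA1, had 5.95 to 7.02 CPM by library total in siTAF5 and 6.15 to 7.58 in ΔE8. KRT19, the highest epithelial marker, had 72 to 74 and 69.3 to 72.7. Whether replicates came from separate cultures is not in the labels, and p-values then describe only how these samples spread, which may be technical. Without a spike-in, and in bulk RNA, fewer cells of a kind and less RNA per cell cannot be told apart.

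TAF5 itself (chr10:103367966-103389065) checks the labels. It stood at 6.13, 7.35 and 6.68 CPM in the siTAF5 libraries and 87.6, 87.5 and 88.9 CPM in the ΔE8 libraries. Every ΔE8 library was far above every siTAF5 library (log2 change 3.70 with SE 0.0439, edgeR adjusted p = 5.18e-22). The siNT libraries held 39.2, 40.5 and 40.2 CPM and the FL libraries 103, 106 and 107 CPM. The depleted cells thus kept 16.8% of the siNT level, and ΔE8 cells had 2.2-fold the siNT level and 1.2-fold less than FL (between them, log2 change -0.26 with SE 0.0314, edgeR adjusted p = 2.12e-06). Exon 8 makes up 5.05% of the annotated transcript. Counts per gene do not resolve the exon, so they show a transgene and do not show which isoform it is.

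Many transcripts differed between ΔE8 and siTAF5 by small amounts. As the line of the siTAF5 cells is not known, add-back and line cannot be told apart. Of 19424 genes tested, 3891 (20.0%) were higher and 3993 (20.6%) lower in ΔE8 than in siTAF5, together 7884 or 40.6%, taking adjusted p-values under 0.05 (quasi-likelihood test of edgeR with Benjamini-Hochberg adjustment). For 9691 genes (49.9%) no library of one group reached into the range of the other. Among the genes called, the median size of the log2 difference was 0.22, and 6984 of them (88.6%) changed by less than 1.5-fold. At least 2-fold changes were found in 120 genes higher (0.618%) and 178 lower (0.916%), mostly genes of low level. Only 6 of the 120 and 11 of the 178 had an average log2 CPM of 2 or more, while 100 and 143 lay under 0. The median SE of a log2 difference was 0.059 over all genes and 0.04 at an average log2 CPM of 2 or more, so changes of about 0.1 log2 could pass the test for well measured genes. Protein-coding genes gave 3661 higher and 3599 lower of 14637, and long noncoding RNAs 152 and 313 of 3306. The shares of all genes, set beside the lists below, are thus under those of protein-coding genes alone. They also cover genes of low level, with larger SE: 12315 of the 19424 had an average log2 CPM of 2 or more. The lists were not set against genes of like level. Upper-quartile scaling gave 3201 higher and 4687 lower, library totals alone gave 3321 and 4546, and the median over all genes moved by no more than 0.03 from its value of -0.01.

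**Figure D1:**
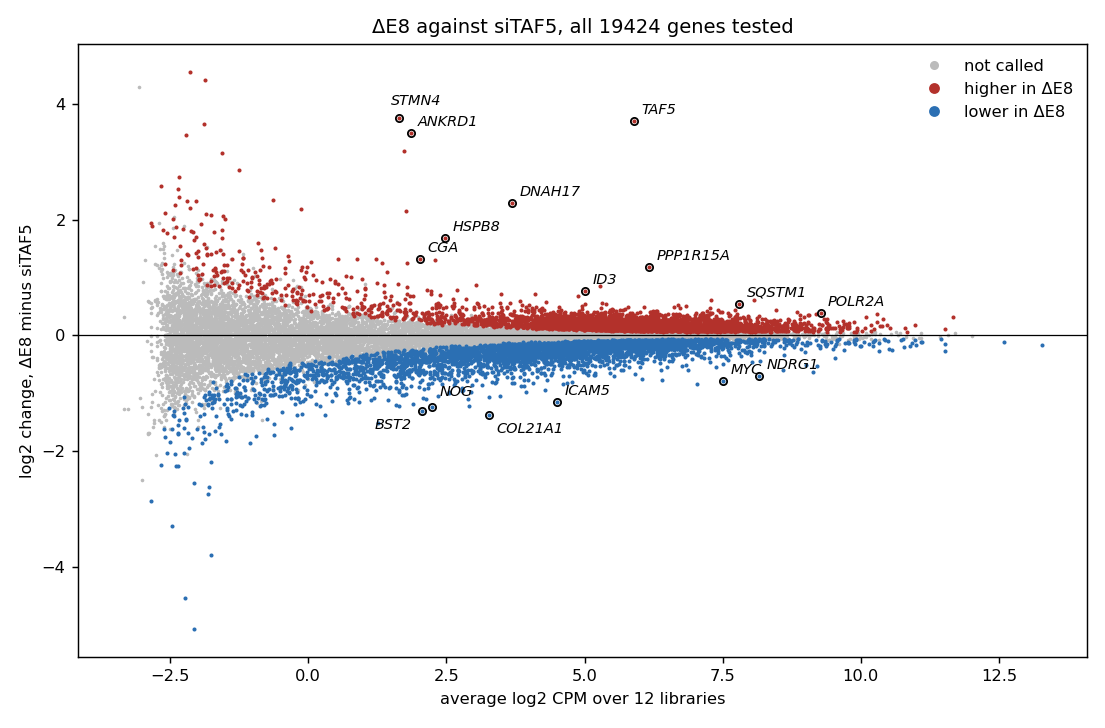
Log2 difference ΔE8 minus siTAF5 (vertical axis) against average log2 CPM over the 12 libraries (horizontal axis), one point per gene for 19424 genes, red where higher, blue where lower and grey where not called at an adjusted p under 0.05. TAF5 (3.70) stands apart among well expressed genes, and most other changes at an average log2 CPM above 5 lie within 1 log2 unit of 0.

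The 12 largest rises are those of genes with a symbol, an average log2 CPM of 2 or more and no overlap between the groups. TAF5 is left out of them. DNAH17, an axonemal dynein heavy chain (chr17:78423697-78577396), stood at 3.6, 3.82 and 4.26 CPM in the siTAF5 libraries and 18.2, 19.1 and 20.3 CPM in the ΔE8 libraries. All ΔE8 libraries lay well above all siTAF5 libraries (log2 change 2.29 with SE 0.0921, edgeR adjusted p = 1.77e-12). An antisense transcript overlaps this gene, and no source used here states whether counting respected strand. HSPB8, a small heat shock protein that works with BAG3 in protein quality control (chr12:119171555-119224855), gave 2.81, 2.22 and 2.53 CPM in the siTAF5 libraries and 7.38, 8.73 and 7.98 CPM in the ΔE8 libraries, again without overlap (log2 change 1.68 with SE 0.108, edgeR adjusted p = 1.12e-09). CGA, the alpha subunit shared by the glycoprotein hormones (chr6:87085498-87095106), gave 1.6, 1.95 and 1.72 CPM in the siTAF5 libraries and 4.23, 4.31 and 4.7 CPM in the ΔE8 libraries (log2 change 1.32 with SE 0.115, edgeR adjusted p = 3.89e-08). The lowest ΔE8 library of CGA was above the highest siTAF5 library.

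PPP1R15A, which encodes the stress-induced GADD34 subunit that directs a phosphatase to eIF2α, was the most abundant of these 12 (chr19:48872421-48876058). Its values were 46.7, 46.2 and 45 CPM in the siTAF5 libraries and 103, 104 and 105 CPM in the ΔE8 libraries, a 2.26-fold rise (log2 change 1.18 with SE 0.0318, edgeR adjusted p = 1.88e-15). The spread within each group was small beside the gap between them. The extracellular matrix glycoprotein EMILIN2 rose from 5.87 ± 0.251 to 10.8 ± 0.433 CPM (mean ± SD, n = 3 here and below), the ETS factor ETV5 from 27.2 ± 1.44 to 49.1 ± 2.5, and ID3, an inhibitor of basic helix-loop-helix factors, from 27.4 ± 1.07 to 46.9 ± 2.94. The other rises were in LINC01963 (0.79 log2), the ferroptosis suppressor AIFM2 (0.72), the noncoding DLEU2 (0.72), the secreted neuropeptide precursor VGF (0.72) and the readthrough transcript COMMD3-BMI1 (0.78). Reads of COMMD3-BMI1 can belong to either of the genes it joins, and its adjusted p was the weakest of the 12 (0.00604, edgeR).

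The FL group shares its siTAF5 reference with ΔE8, so FL values are set beside these only as values. Against siTAF5, FL differed by 2.62 log2 for DNAH17, 1.87 for HSPB8, 1.77 for CGA, 1.11 for PPP1R15A and 1.02 for ETV5. The direct test of ΔE8 against FL did not pass for HSPB8 (log2 change -0.20 with SE 0.0919, edgeR adjusted p = 0.103) or PPP1R15A (log2 change 0.07 with SE 0.03, edgeR adjusted p = 0.0849). It called ΔE8 lower than FL for DNAH17 (-0.32 log2), CGA (-0.45), ETV5 (-0.17), AIFM2 (-0.28), LINC01963 (-0.31) and DLEU2 (-0.76). It called ΔE8 higher for ID3 (0.46) and EMILIN2 (0.23).

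**Figure D2:**
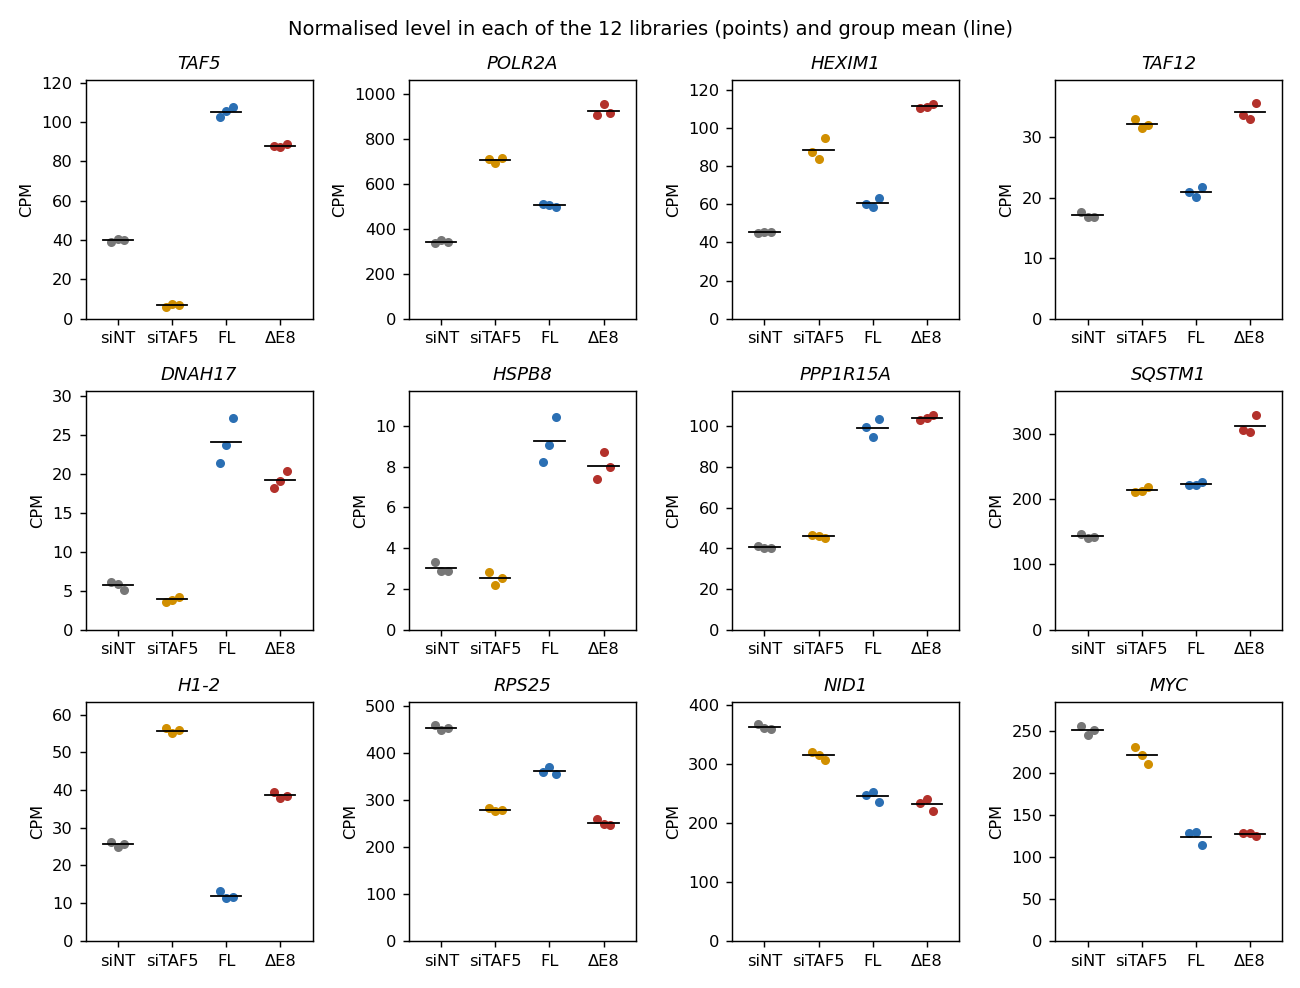
Normalised level (CPM, vertical axis starting at 0) of 12 genes in each library of siNT, siTAF5, FL and ΔE8, with points for libraries and a line for the mean of 3. DNAH17, HSPB8 and PPP1R15A are high in both add-backs, POLR2A and HEXIM1 are highest in ΔE8 and lower in FL than in siTAF5, and TAF12 in ΔE8 stays near its siTAF5 level.

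The 12 largest falls are given for genes with a symbol and an average log2 CPM of 2 or more. This leaves out most genes that fell at least 2-fold. COL21A1, a fibril-associated collagen (chr6:56056590-56394094), went from 11.7, 12.3 and 10.8 CPM in siTAF5 to 4.83, 4.67 and 3.66 CPM in ΔE8, with no overlap (log2 change -1.38 with SE 0.0818, edgeR adjusted p = 4.23e-10). ICAM5, a neuronal adhesion protein (chr19:10289952-10296778), was better measured: it stood at 29.3, 29.4 and 25.8 CPM in the siTAF5 libraries and 12.7, 12.9 and 12 CPM in the ΔE8 libraries (log2 change -1.16 with SE 0.068, edgeR adjusted p = 4.23e-10). The lowest siTAF5 library had more than the highest ΔE8 library. MMP2, a gelatinase that degrades matrix, fell from 14.8 ± 1.17 to 7.08 ± 0.476 CPM, and NOG, the BMP antagonist noggin, from 5.88 ± 0.436 to 2.51 ± 0.269.

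BST2 (tetherin), an interferon-inducible protein that holds budding viruses at the cell surface (chr19:17402939-17405630), gave 3.3, 3.52 and 3.32 CPM in the siTAF5 libraries and 1.46, 1.35 and 1.23 CPM in the ΔE8 libraries (log2 change -1.31 with SE 0.129, edgeR adjusted p = 1.65e-07). SPARC, a matricellular protein, gave 4.34, 4.13 and 4.12 CPM in the siTAF5 libraries and 1.94, 1.89 and 2.16 CPM in the ΔE8 libraries (log2 change -1.08 with SE 0.0913, edgeR adjusted p = 2.75e-08). Both sets are low, but the ΔE8 libraries lay below every siTAF5 library. The teneurin TENM1 (-1.21 log2), the cytokine IL32 (-1.11), the secreted stanniocalcin STC1 (-1.10), VSTM2B (-1.06), the GTPase-activating protein AGAP2 (-0.99) and the antisense transcript PROX1-AS1 (-1.04) completed the 12. The direct test placed ΔE8 below FL for BST2 (-1.16 log2), SPARC (-0.88), COL21A1 (-0.51), IL32 (-0.35) and TENM1 (-0.33), and above FL for PROX1-AS1 (0.70) and VSTM2B (0.34). For ICAM5, MMP2, NOG, STC1 and AGAP2 it did not pass, with adjusted p between 0.0879 (AGAP2) and 0.806 (MMP2) by edgeR.

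Because TFIID binds the TATA box through TBP, the promoters of the genes that changed were searched for the letters TATAAA. RefSeq promoters of GRCh38.p14 (250 bases before to 50 after the start) matched 12597 of 16773 symbols tested. Only the first promoter listed for a symbol was kept, so other starts of a gene were not searched. On the gene's own strand, with the motif starting 40 to 20 bases before the start, it was found in 1.86% of all promoters of genes tested, in 1.65% of those of genes higher in ΔE8 (51 of 3091) and in 1.95% of those of genes lower (57 of 2918). Of all 27305 RefSeq promoters 2.55% held it. Promoters were matched for 53 of the 120 genes at least 2-fold higher and for 104 of the 178 at least 2-fold lower. The motif was found in that window in 10 of the 53 (18.9%) and in 0 of the 104. Anywhere in the 300 bases and on either strand, TATAAA was found in 6.17% of all promoters of genes tested (12% of all RefSeq promoters), 32.1% of those at least 2-fold higher and 8.65% of those at least 2-fold lower. Median GC content was 65.3% in all, 54.3% in the first group and 61.7% in the second, and these groups are mostly low-level genes, so the shares are a description and were not tested.

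Of 33 genes named by size or by differences from both siTAF5 and FL, 23 had a promoter in the table, and 3, all risers, held TATAAA in that window. They are shown from 5′ to 3′ on the gene's strand, with TATAAA in capitals: it starts -29 bases from the start in CGA (chr6:87095057-87095356, - strand), -30 in PPP1R15A (chr19:48872171-48872470, + strand) and -33 in DLEU2 (chr13:50125492-50125791, - strand). A match of letters is not evidence of binding.
CGA: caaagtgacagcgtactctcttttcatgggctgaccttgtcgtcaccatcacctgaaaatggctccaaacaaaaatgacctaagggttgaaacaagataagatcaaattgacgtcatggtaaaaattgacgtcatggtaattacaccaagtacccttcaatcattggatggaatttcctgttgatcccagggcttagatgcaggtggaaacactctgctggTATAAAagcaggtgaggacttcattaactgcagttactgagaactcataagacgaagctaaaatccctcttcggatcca
PPP1R15A: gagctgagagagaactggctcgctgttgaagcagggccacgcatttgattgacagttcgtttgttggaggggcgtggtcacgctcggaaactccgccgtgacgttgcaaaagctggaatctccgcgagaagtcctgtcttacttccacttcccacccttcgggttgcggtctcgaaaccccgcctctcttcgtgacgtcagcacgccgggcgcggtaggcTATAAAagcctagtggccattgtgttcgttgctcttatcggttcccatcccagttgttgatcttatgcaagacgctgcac
DLEU2: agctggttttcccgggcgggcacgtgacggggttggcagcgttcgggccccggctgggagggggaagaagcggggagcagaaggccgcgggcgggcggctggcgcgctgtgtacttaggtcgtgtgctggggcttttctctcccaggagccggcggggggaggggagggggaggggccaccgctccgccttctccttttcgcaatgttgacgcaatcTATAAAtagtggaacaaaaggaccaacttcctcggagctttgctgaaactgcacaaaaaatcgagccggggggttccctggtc

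The gene lists from here on were chosen with earlier results of these data known, so their shares are a description. Of 16 genes listed as TFIID subunits beside TAF5, 8 (50%) were higher and 0 lower, against 20.0% and 20.6% of all genes. All 16 were measured, TAF4B, TAF9B and TAF15 among them, and their median log2 difference from siTAF5 was 0.08. TAF3, whose finger domain reads a methylated histone tail at active promoters, led at 39, 38.9 and 39.4 CPM in the siTAF5 libraries and 48.6, 48.4 and 49.1 CPM in the ΔE8 libraries (log2 change 0.32 with SE 0.0349, edgeR adjusted p = 6.32e-07). Next came TAF2 (0.22 log2), TAF9B (0.19), TAF13 (0.17), TAF9 (0.16), TAF6 (0.12), TAF4 (0.09) and TAF15 (0.09). The calls of TAF4 and TAF15 were lost under upper-quartile scaling (edgeR adjusted p = 0.0966 and 0.112). For TBP the test was not passed (0.08 log2, edgeR adjusted p = 0.122), nor for TAF1, TAF4B, TAF7, TAF8, TAF10, TAF11 or TAF12.

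TAF12, a histone-fold partner of TAF4 (chr1:28587829-28648291), gave 33, 31.6 and 32.1 CPM in the siTAF5 libraries and 33.7, 33.1 and 35.7 CPM in the ΔE8 libraries (log2 change 0.08 with SE 0.0398, edgeR adjusted p = 0.114). Each ΔE8 library was above each siTAF5 library, but by less than the test could call. The siNT libraries had 17.7, 16.8 and 16.8 CPM and the FL libraries 21, 20.1 and 21.8 CPM, so both lay far below, and ΔE8 exceeded FL by 0.70 log2 (SE 0.0423, edgeR adjusted p = 1.74e-10). TAF4 and TAF6 were higher in ΔE8 than in siTAF5 and lower in FL than in siTAF5 (-0.24 and -0.16), and ΔE8 exceeded FL by 0.33 and 0.28. TAF8 went the other way: ΔE8 differed from siTAF5 by -0.03 log2 (edgeR adjusted p = 0.557) and was -0.27 log2 from FL (edgeR adjusted p = 1.28e-05).

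POLR2A, the catalytic subunit of RNA polymerase II (chr17:7484366-7514616), was the largest change among 29 polymerase II subunits and general factors. It stood at 709.5, 694 and 717 CPM in the siTAF5 libraries and 908, 954 and 915 CPM in the ΔE8 libraries (log2 change 0.39 with SE 0.023, edgeR adjusted p = 4.23e-10). The siNT libraries had 338, 348 and 341 CPM and the FL libraries 509.6, 505 and 498 CPM. The 4 groups did not overlap, in the order siNT, FL, siTAF5, ΔE8. FL lay -0.49 log2 from siTAF5, and ΔE8 exceeded FL by 0.88 (SE 0.0233, edgeR adjusted p = 2.76e-15). The small subunit POLR2L (ΔE8 minus siTAF5 0.16, FL minus siTAF5 -0.12) and the TFIIA gene GTF2A1 (0.11 and -0.31) also had opposite signs in the 2 add-backs.

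Of the 29 genes of that list, 16 (55.2%) were higher and 2 (6.9%) lower, against 20.0% and 20.6% of all genes, with a median of 0.09. TFIIB (GTF2B), which bridges TBP and the polymerase, rose from 32.5 ± 1.22 to 39.4 ± 0.428 CPM, and the TFIIH subunit GTF2H1 from 35 ± 0.144 to 43.1 ± 0.558. ERCC2, the XPD helicase of TFIIH, fell from 86.6 ± 0.689 to 74.3 ± 1.71. For these 3 genes FL lay on the same side of siTAF5, at 0.24, 0.28 and -0.31 log2. POLR2C (0.17), POLR2K (0.17), POLR2B (0.10), GTF2F1 (0.13) and GTF2H2 (0.13) rose too. POLR2E, POLR2F, POLR2G, GTF2A2, GTF2E1, GTF2E2 and GTF2F2 passed narrowly, with sizes of at most 0.16 log2, and each lost its call under at least 1 alternative setting. POLR2D, POLR2H, POLR2I, POLR2J, GTF2H3, GTF2H4, GTF2H5, ERCC3, CDK7, CCNH and MNAT1 did not pass.

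**Figure D3:**
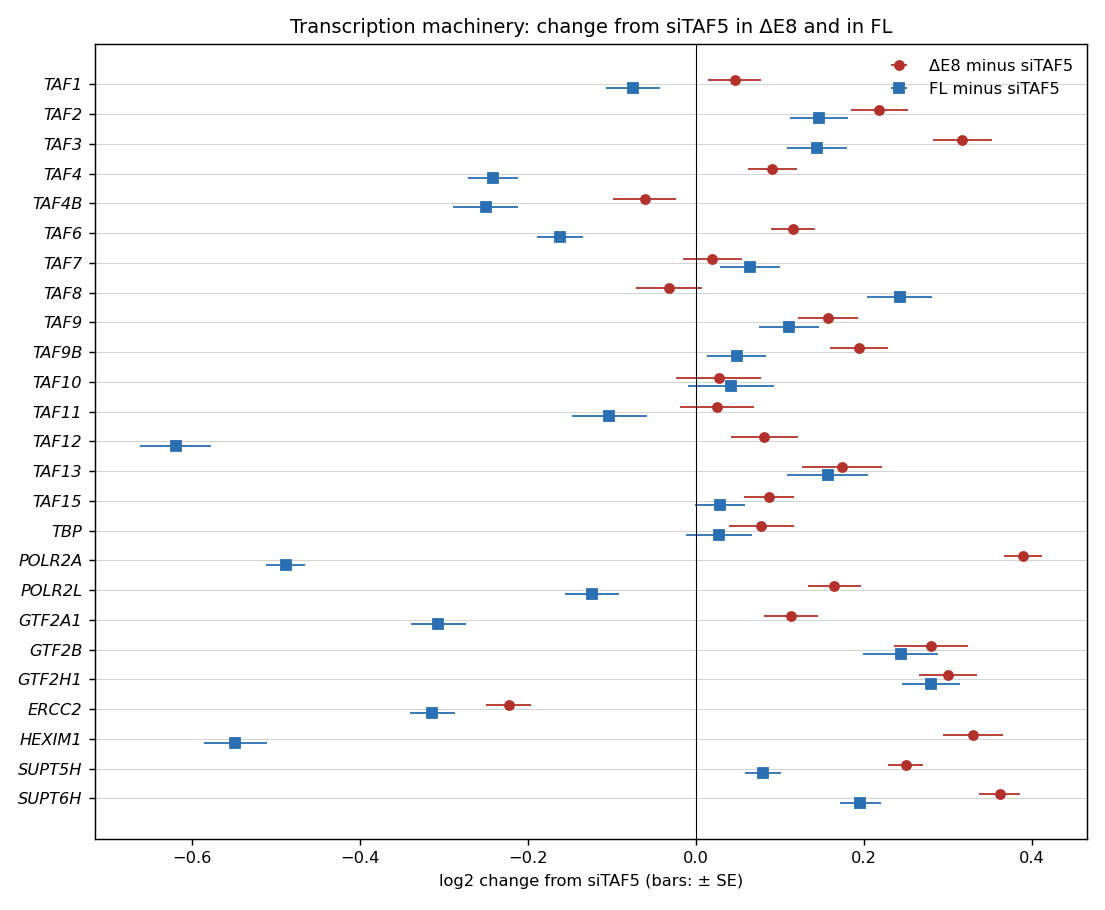
Log2 difference from siTAF5 (horizontal axis, bars ± SE from the fit) of TFIID subunits, polymerase II subunits, general factors and elongation factors in ΔE8 (red circles) and FL (blue squares), which share the siTAF5 libraries. TAF12, TAF4, TAF6, POLR2A, GTF2A1 and HEXIM1 lie to the left of 0 in FL and to the right in ΔE8, while GTF2B and GTF2H1 are close in both.

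More elongation and Mediator genes were higher than lower. Of 28 P-TEFb and elongation genes 18 (64.3%) were higher and 2 (7.14%) lower (median 0.14), against 20.0% and 20.6% of all genes. HEXIM1, which with 7SK RNA holds the elongation kinase P-TEFb inactive (chr17:45148475-45152099), stood at 87.6, 84 and 94.6 CPM in the siTAF5 libraries and 111, 111 and 113 CPM in the ΔE8 libraries (log2 change 0.33 with SE 0.0357, edgeR adjusted p = 5.21e-07). FL libraries had 60, 58.6 and 63.6 CPM, below siTAF5 without overlap, and ΔE8 exceeded FL by 0.88 log2 (edgeR adjusted p = 1.94e-12). The nucleosome chaperone SUPT6H rose from 204 ± 3.02 to 261 ± 5.59 CPM, the pausing factor SUPT5H from 336 ± 4.19 to 399 ± 2.44, and the PAF complex subunit CTR9 from 87.2 ± 1.54 to 104 ± 1.75. ΔE8 also exceeded FL for these 3 genes (log2 0.17, 0.17 and 0.14).

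Of 32 Mediator subunits 19 (59.4%) were higher and 2 (6.25%) lower (median 0.12), against 20.0% and 20.6% of all genes. The smallest adjusted p were those of MED27 (0.34 log2), MED24 (0.25), MED13 (0.28) and MED15 (0.20), and the largest rise was in MED17 (0.35), named here after its value was seen. Of 16 SAGA subunits 6 (37.5%) were higher and 2 (12.5%) lower (median 0.03). TAF5L, the SAGA counterpart of TAF5, rose from 73.4 ± 0.602 to 83.7 ± 1.26 CPM, the acetyltransferase KAT2A by 0.18 log2 and the scaffold TRRAP by 0.16. The deubiquitinase USP22 did not pass (0.02, edgeR adjusted p = 0.475). Of 34 genes of RNA polymerases I and III 16 (47.1%) were higher and 4 (11.8%) lower (median 0.07), with POLR3C (0.34), GTF3C5 (0.24), POLR3A (0.22) and GTF3C1 (0.17) at the smallest adjusted p.

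Some genes differed in ΔE8 from both siTAF5 and FL, in the same direction. SQSTM1, the p62 receptor that brings ubiquitinated cargo to autophagosomes (chr5:179806398-179838078), was the most abundant. It stood at 211, 212 and 219 CPM in the siTAF5 libraries and 306, 303 and 329 CPM in the ΔE8 libraries (log2 change 0.54 with SE 0.0293, edgeR adjusted p = 1.75e-10). FL had 222, 222 and 227 CPM, below every ΔE8 library (log2 change 0.48 with SE 0.0293, edgeR adjusted p = 1.77e-10). The early growth response factor EGR1 went from 18.1 ± 0.828 in siTAF5 and 19.2 ± 0.484 in FL to 26.9 ± 2.12 CPM in ΔE8, and the quinone reductase NQO1 from 5.14 ± 0.531 and 5.17 ± 0.274 to 7.45 ± 0.329. ID3, DNLZ (a cofactor of mitochondrial HSP70) and the glycosyltransferase GALNT4 complete the 6 named above both.

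The 6 named below both were BST2, SPARC, COL27A1, CDH1, IL12A and ITGA9. CDH1, the epithelial cadherin (chr16:68737292-68835537), gave 6.75, 6.51 and 6.33 CPM in the siTAF5 libraries and 3.86, 3.53 and 3.92 CPM in the ΔE8 libraries (log2 change -0.79 with SE 0.0719, edgeR adjusted p = 6.32e-08), and the FL libraries held 6.38, 6.55 and 6.26 CPM. COL27A1, a fibrillar collagen, fell from 8.04 ± 0.338 in siTAF5 and 8.06 ± 0.337 in FL to 4.65 ± 0.847 CPM. The interleukin-12 subunit IL12A (-0.69 log2 from siTAF5 and -0.77 from FL) and the integrin ITGA9 (-0.67 and -0.81) fell as well. The siNT means of these 6 genes were above those of siTAF5, for example 11.9 ± 0.427 CPM for CDH1 and 8.21 ± 0.484 for BST2. The protocadherin PCDH19 (chrX:100291644-100410273) gave 11.8, 11.7 and 13 CPM in the siTAF5 libraries and 7.43, 9.12 and 7.41 CPM in the ΔE8 libraries (log2 change -0.61 with SE 0.0693, edgeR adjusted p = 1.01e-06), and 20.9, 22 and 21.3 CPM in FL. ΔE8 was thus the lowest and FL higher than siTAF5, a difference between the add-backs of -1.41 log2 (edgeR adjusted p = 5.83e-12).

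The libraries hold polyadenylated RNA, while messages of most replication-dependent histone genes end in a stem-loop and not in a poly(A) tail. For these genes the level of a message and its polyadenylated share cannot be told apart. Of 38 measured, of 57 in the list, 1 (2.63%) was higher and 12 (31.6%) lower in ΔE8 than in siTAF5, against 20.0% and 20.6% of all genes, with a median of -0.15 and a range from -0.84 to 0.93 log2. FL against siTAF5 gave a median of -0.83, with 22 lower and 1 higher, where 24.4% of all genes were lower and 24.4% higher. The direct test of ΔE8 against FL, which called 17.3% of all genes higher and 19.7% lower, called 19 of the 38 higher and 0 lower (median 0.86), and the difference was 1.92 for H2AC18. The linker histone H1-2 (chr6:26055740-26056470) stood at 56.4, 55 and 55.8 CPM in the siTAF5 libraries and 39.5, 37.8 and 38.4 CPM in the ΔE8 libraries (log2 change -0.53 with SE 0.0379, edgeR adjusted p = 4.17e-09). FL had 13.1, 11.5 and 11.5 CPM, the lowest of the 4 groups, and siNT 26.2, 25 and 25.7. ΔE8 lay between siTAF5 and siNT, with no overlap.

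H2AC18 and H2AC19 are near-identical copies, so the split of reads between them is uncertain. H2AC18 fell from 45.2 ± 1.44 to 25.4 ± 1.84 CPM and H2AC19 from 34.1 ± 1.85 to 20 ± 1.36, while FL had 6.7 ± 1.1 and 7.45 ± 0.989. H2BC21, which also gives polyadenylated messages, fell from 28.4 ± 0.93 to 18.1 ± 0.95 CPM, against 9.41 ± 0.358 in FL. In promoters, TATAAA stood in the same window of 19 of 36 histone genes (52.8%), against 1.86% of all genes tested. NEAT1, the architectural RNA of paraspeckles (chr11:65422774-65445540), gave 128, 135 and 141 CPM in the siTAF5 libraries and 109, 132 and 129.9 CPM in the ΔE8 libraries, and the groups overlapped (log2 change -0.12 with SE 0.0611, edgeR adjusted p = 0.115). FL had 52.6, 57.9 and 59.2 CPM, so ΔE8 exceeded FL by 1.13 log2 (edgeR adjusted p = 1.08e-10).

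Of 29 p53 targets 6 (20.7%) were higher and 13 (44.8%) lower (median -0.07, FL -0.24), against 20.0% and 20.6% of all genes. The median was -0.04 without siTAF5 replicate 3 and -0.046 without siTAF5 replicate 2. The antiproliferative BTG2 fell from 91.6 ± 1.86 to 69.9 ± 2.1 CPM, the death gene BBC3 (PUMA) from 28.9 ± 1.47 to 19.2 ± 0.6, the stress cytokine GDF15 from 7.58 ± 0.601 to 4.93 ± 0.14 and the sestrin SESN1 from 77.6 ± 1.85 to 65.5 ± 0.298. Of 30 apoptosis regulators 6 (20%) were higher and 8 (26.7%) lower (median 0.02), shares close to those of all genes. BMF, a BH3-only activator of death, fell (-0.73 log2), and MCL1, which blocks death, rose (0.31), as did the pore-forming BAK1 (0.24). Without siTAF5 replicate 2, 5 of the apoptosis genes were lower, and the median was 0.042 without ΔE8 replicate 3.

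More cell cycle genes were higher than lower in ΔE8. Of 36 genes of G1/S and DNA replication 23 (63.9%) were higher and 3 (8.33%) lower (median 0.13), and of 30 genes of G2/M and mitosis 20 (66.7%) were higher and 0 lower (median 0.13), against 20.0% and 20.6% of all genes and a median of -0.01. The other 10 genes of each list did not pass. CDC6, which loads the replicative helicase (chr17:40287879-40304657), stood at 119.8, 116 and 118 CPM in the siTAF5 libraries and 159, 151 and 153 CPM in the ΔE8 libraries, without overlap (log2 change 0.39 with SE 0.0301, edgeR adjusted p = 1.11e-08). The helicase subunit MCM7 rose from 719 ± 1.18 to 853 ± 4.62 CPM and the flap nuclease FEN1 from 101 ± 0.843 to 125 ± 3.07. The mitotic activator CDC20 rose by 0.33 log2, the proliferation antigen MKI67 by 0.32, the motor KIF11 by 0.28 and the kinase PLK1 by 0.22. CCND1, the D-type cyclin of early G1, went down, from 186 ± 2.27 to 150 ± 2.35 CPM. FL medians against siTAF5 were 0.19 and 0.21. The direct test of ΔE8 against FL called 7 of the 36 G1/S genes higher and 15 lower, and 6 of the 30 G2/M genes higher and 16 lower, against 17.3% higher and 19.7% lower of all genes. Of the 8 genes named here, it called CDC6 higher in ΔE8 (0.08 log2, edgeR adjusted p = 0.0355) and MCM7 lower (-0.11, 0.000263). For the other 6 it did not pass, with edgeR adjusted p from 0.234 for FEN1 to 0.846 for MKI67.

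Splicing factors were the list with the highest median, 0.16: of 40, 33 (82.5%) were higher and 2 (5%) lower, against 20.0% and 20.6% of all genes. SF3B4, a subunit of the U2 particle (chr1:149923317-149927803), stood at 99.4, 94.5 and 91.8 CPM in the siTAF5 libraries and 132, 139 and 136 CPM in the ΔE8 libraries, with all ΔE8 libraries above all siTAF5 libraries (log2 change 0.51 with SE 0.0304, edgeR adjusted p = 4.44e-10). HNRNPM rose from 391 ± 6.06 to 520 ± 6.95 CPM, HNRNPU from 1260 ± 5.99 to 1533 ± 22.9 and SF3A1 from 291 ± 1.46 to 347 ± 3.9. The FL median was 0.29, and the direct test called 27 of 40 lower in ΔE8 than in FL and 1 higher, against 17.3% higher and 19.7% lower of all genes. HNRNPM differed by -0.18 log2.

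Of 34 ribosome biogenesis genes 28 (82.4%) were higher and 2 (5.88%) lower (median 0.14), against 20.0% and 20.6% of all genes. The methyltransferase NOP2 rose from 139 ± 0.614 to 174 ± 2.9 CPM, RRP12 from 86.5 ± 3.1 to 109.5 ± 2.04, NOP58 by 0.31 log2 and NOP14 by 0.21. Of 79 cytosolic ribosomal protein genes 2 (2.53%) were higher and 44 (55.7%) lower (median -0.08, and -0.049 without ΔE8 replicate 2), and their share of all counts was also lower, as given above. RPL13A went from 1441, 1418 and 1391 CPM in siTAF5 to 1209, 1207 and 1206 in ΔE8 (log2 change -0.23 with SE 0.0237, edgeR adjusted p = 2.75e-07). RPS25 (chr11:119015712-119018691) stood at 282, 277 and 279.6 CPM in the siTAF5 libraries and 259, 249 and 248 CPM in the ΔE8 libraries (log2 change -0.15 with SE 0.0238, edgeR adjusted p = 4.82e-05), and FL was on the other side of siTAF5, at 361, 369.8 and 356 CPM. The direct test called 69 of the 79 lower in ΔE8 than in FL and 3 higher (against 17.3% higher and 19.7% lower of all genes), with a median of -0.20, and the FL median against siTAF5 was 0.12. Single ribosomal protein genes share reads with pseudogenes and are uncertain.

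Translation factors gave 18 (48.6%) higher and 7 (18.9%) lower of 37 (median 0.04, and 0.075 without ΔE8 replicate 3), against 20.0% and 20.6% of all genes. EIF6, which keeps the ribosomal subunits apart, rose from 118 ± 3.2 to 146 ± 3.17 CPM, and the helicase EIF4A1 and the scaffold EIF4G1 rose by 0.18 and 0.19 log2. The elongation factor EEF1A1 fell by 0.17 on the log2 scale. Host genes of small nucleolar RNAs gave 6 (26.1%) higher and 10 (43.5%) lower of 23 (median -0.03, and 0.029 without ΔE8 replicate 2): SNHG17 (0.56) and SNHG15 (0.28) rose, SNHG16 (-0.28) and ZFAS1 (-0.28) fell. SNHG16 had 171 ± 2.88 CPM in siNT, 106 ± 2.81 in siTAF5, 124 ± 2 in FL and 87.4 ± 2.31 in ΔE8, so the add-backs lay on opposite sides of siTAF5. Of 20 aminoacyl-tRNA synthetases 12 (60%) were higher and 1 (5%) lower (median 0.09, FL 0.27), among them RARS1 (0.34), MARS1 (0.21), FARSB (0.19) and GARS1 (0.15).

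Stress programs did not move as one. Among 30 genes of ATF4 and the integrated stress response, 6 (20%) were higher and 11 (36.7%) lower (median -0.03), against 20.0% and 20.6% of all genes. Without siTAF5 replicate 1, 7 were lower and the median was -0.015, and it was -0.016 without ΔE8 replicate 3. PPP1R15A and the amino acid transporter chain SLC3A2 rose, the latter from 128 ± 3.91 to 194 ± 6.68 CPM. ATF3 (chr1:212565334-212620777) stood at 87.2, 85.8 and 86 CPM in the siTAF5 libraries and 113, 111 and 110.2 CPM in the ΔE8 libraries (log2 change 0.37 with SE 0.0292, edgeR adjusted p = 1.31e-08), and ΔE8 exceeded FL by 0.31 log2. ALDH1L2, a mitochondrial folate enzyme, fell from 15.8 ± 1.2 to 8.91 ± 0.306 CPM. The FL median of the list was 0.16, and the direct test called 20 of 30 lower in ΔE8 than in FL and 2 higher, against 17.3% higher and 19.7% lower of all genes.

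Of 21 genes of the unfolded protein response 11 (52.4%) were higher and 3 (14.3%) lower (median 0.07), against 20.0% and 20.6% of all genes, with the chaperones DNAJB11 (0.32 log2) and HSPA5 (0.20), the secreted factor MANF (0.24) and the transcription factor XBP1 (0.19) among those higher. Of 22 heat shock chaperones 13 (59.1%) were higher and 2 (9.09%) lower (median 0.09). Beside HSPB8, the cochaperone DNAJA1 rose from 188 ± 6.05 to 255 ± 8.31 CPM, HSP90AA1 from 3111 ± 3.05 to 3857 ± 108 and HSPH1 from 142 ± 4.03 to 193 ± 4.3. HSP90AA1 exceeded its FL level by 0.19 log2, HSPH1 differed from FL by -0.12, and DNAJA1 did not pass (0.00, edgeR adjusted p = 0.939).

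Of 55 nuclear-encoded oxidative phosphorylation genes 28 (50.9%) were higher and 2 (3.64%) lower (median 0.08), against 20.0% and 20.6% of all genes, but 18 were higher and 5 lower with upper-quartile scaling. NDUFA9 (0.25 log2), UQCRB (0.19), NDUFS3 (0.17) and UQCRFS1 (0.16) had the smallest adjusted p. Of 13 mitochondrially encoded genes 0 were higher and 7 (53.8%) lower (median -0.15), against 20.0% and 20.6% of all genes, beside the lower mitochondrial share of counts. Without siTAF5 replicate 1, 5 were lower and the median was -0.091, and without ΔE8 replicate 1 these were 5 and -0.096. MT-CO3 went from 897, 838 and 865 to 685, 753 and 740.2 CPM and MT-CO1 from 3264, 3000 and 3084 to 2443, 2684 and 2633, without overlap. The median ΔE8 minus FL was -0.01.

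Glycolysis and hypoxia genes gave 7 (21.9%) higher and 13 (40.6%) lower of 32 (median -0.08), against 20.0% and 20.6% of all genes. NDRG1, a hypoxia- and stress-regulated gene (chr8:133237175-133302022), stood at 388, 377 and 341 CPM in the siTAF5 libraries and 238, 227 and 212 CPM in the ΔE8 libraries (log2 change -0.71 with SE 0.0576, edgeR adjusted p = 1.87e-08). The angiogenic factor VEGFA fell from 51.5 ± 1.78 to 41.4 ± 1.15 CPM, while the glycolytic enzymes PKM (0.18 log2) and PGAM1 (0.12) rose. Of 23 cholesterol genes 4 (17.4%) were higher and 11 (47.8%) lower (median -0.06): the sterol sensor partner INSIG1 fell from 294 ± 6.42 to 232 ± 13.6 CPM, MSMO1 fell by 0.26 and STARD4 fell by 0.25 on the log2 scale. Squalene epoxidase SQLE fell from 114 ± 4.42 to 98.8 ± 3.58 CPM, and was 138 ± 3.06 in FL and 172 ± 2.44 in siNT. Lysosome and autophagy genes gave 12 (41.4%) higher and 8 (27.6%) lower of 29 (median 0.05). Beside SQSTM1, the proton pump subunit ATP6V0D1 rose (0.29), and the hydrolases GLA (-0.25) and GAA (-0.34) fell.

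Most genes of the matrix list fell. Of 28 extracellular matrix and TGF-beta genes measured, of 30 listed, 0 were higher and 23 (82.1%) lower, against 20.0% and 20.6% of all genes. The median was the lowest of all lists, -0.44, with an FL median of -0.36. Members ranged from -1.092 to 1.096 log2, and the highest was not called. EMILIN2, a matrix gene named above among the largest rises, is not in this list. NID1, a basement membrane linker (chr1:235975830-236065109), stood at 320.4, 316 and 308 CPM in the siTAF5 libraries and 234, 241 and 221 CPM in the ΔE8 libraries, without overlap (log2 change -0.44 with SE 0.0304, edgeR adjusted p = 2.57e-09). COL6A1 fell from 186 ± 8.93 to 127 ± 3.97 CPM, COL5A1 from 35.4 ± 1.87 to 22.6 ± 1.67 and the proteoglycan AGRN from 320.1 ± 6.79 to 231 ± 2.16. The direct test against FL called 7 of the 28 higher in ΔE8 and 9 lower, against 17.3% higher and 19.7% lower of all genes. COL6A1 (-0.18 log2) and COL5A1 (-0.17) were lower than in FL and AGRN (0.24) higher. The summed level of 9 fibroblast markers by library total was 13.5 to 14.2 CPM in siTAF5 and 10.8 to 10.9 in ΔE8, and 6 of the 9 (COL1A2, DCN, LUM, PDGFRB, THY1 and POSTN) were under 1 CPM in every library. The other 3 were measured and had lower ranges in ΔE8, but the test called only 1 of them lower and did not call 2. COL1A1 had 8.02 to 8.94 CPM in siTAF5 and 7.04 to 7.63 in ΔE8. COL3A1 had 2.37 to 2.74 and 1.15 to 1.16, and PDGFRA 2.46 to 3.08 and 1.97 to 2.44. The part of such cells in the lower matrix genes was not tested.

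Of 23 cadherins and protocadherins 3 (13%) were higher and 6 (26.1%) lower (median -0.12), against 20.0% and 20.6% of all genes. The median was -0.028 without siTAF5 replicate 2, and between -0.062 and -0.056 without siTAF5 replicate 1, ΔE8 replicate 1 or ΔE8 replicate 2. The placental cadherin CDH3 fell from 16.5 ± 1.12 to 8.24 ± 1.04 CPM, and PCDH7 rose from 68 ± 1.78 to 86.6 ± 1.4. The summed level of the keratin-rich epithelial markers, which include CDH1 and CDH3, was 163 to 170 CPM by library total in siTAF5 and 152 to 156 in ΔE8. The part of other cell types in these falls was not tested. Of 18 BMP and ID genes 3 (16.7%) were higher and 7 (38.9%) lower (median -0.07). Without siTAF5 replicate 1, 4 were lower. ID3 and the homeobox gene MSX2 (0.36 log2) rose, while the ligand BMP7 (-0.26) and its antagonist NOG fell.

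Immediate early genes were split, with 9 (33.3%) higher and 8 (29.6%) lower of 27 (median -0.01), against 20.0% and 20.6% of all genes. MYC, the growth-promoting transcription factor (chr8:127735434-127742951), stood at 231, 222 and 211 CPM in the siTAF5 libraries and 128, 129 and 125 CPM in the ΔE8 libraries (log2 change -0.80 with SE 0.0398, edgeR adjusted p = 6.86e-11). FL had 129, 129.7 and 114 CPM, and the add-backs did not differ past the test (0.03 log2, edgeR adjusted p = 0.567). IER3 fell as well (-0.57), whereas EGR1 and ATF3 rose. Of 23 YAP and TEAD targets 5 (21.7%) were higher and 6 (26.1%) lower (median -0.05), close to the 20.0% and 20.6% of all genes, and the median was -0.005 without ΔE8 replicate 3 or siTAF5 replicate 2. ANKRD1, a cardiac and muscle stress-response gene (chr10:90912096-90921087), went from 0.532, 0.528 and 0.632 CPM in siTAF5 to 6.27, 5.74 and 7.34 in ΔE8 (log2 change 3.50 with SE 0.179, edgeR adjusted p = 9.33e-11). Its mean was 0.587 ± 0.132 CPM in siNT, and the FL libraries had 6.97, 6.12 and 9.07 CPM. MYOF, a membrane repair protein, rose from 1 ± 0.14 to 2.49 ± 0.238 CPM, and the transcription factor TEAD2 (-0.53) and ARHGEF17 (-0.48) fell.

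Of 24 neuronal genes 8 (33.3%) were higher and 7 (29.2%) lower (median -0.02), against 20.0% and 20.6% of all genes. The median was from 0.007 to 0.05 when any ΔE8 or siTAF5 library except ΔE8 replicate 2 was left out. The vesicle protein SYP (0.60 log2), the microtubule protein MAP1A (0.53) and the neurofilament INA (0.37) rose, and the adhesion molecule NCAM1 (-0.28) fell. Of 29 interferon-stimulated genes 3 (10.3%) were higher and 5 (17.2%) lower (median -0.02), both below the shares of all genes. Beside BST2, IFITM1 (-0.65) and IFITM2 (-0.38), which restrict virus entry, fell, and IFIT5 (0.21) rose. Without ΔE8 replicate 2, 5 were higher. Of 6 nuclear-retained noncoding RNAs 0 were higher and 1 (16.7%) lower (median -0.02), and the 1 called, OIP5-AS1 (-0.09), had overlapping groups. NORAD and TUG1 did not pass (edgeR adjusted p = 0.564 and 0.142).

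**Figure D4:**
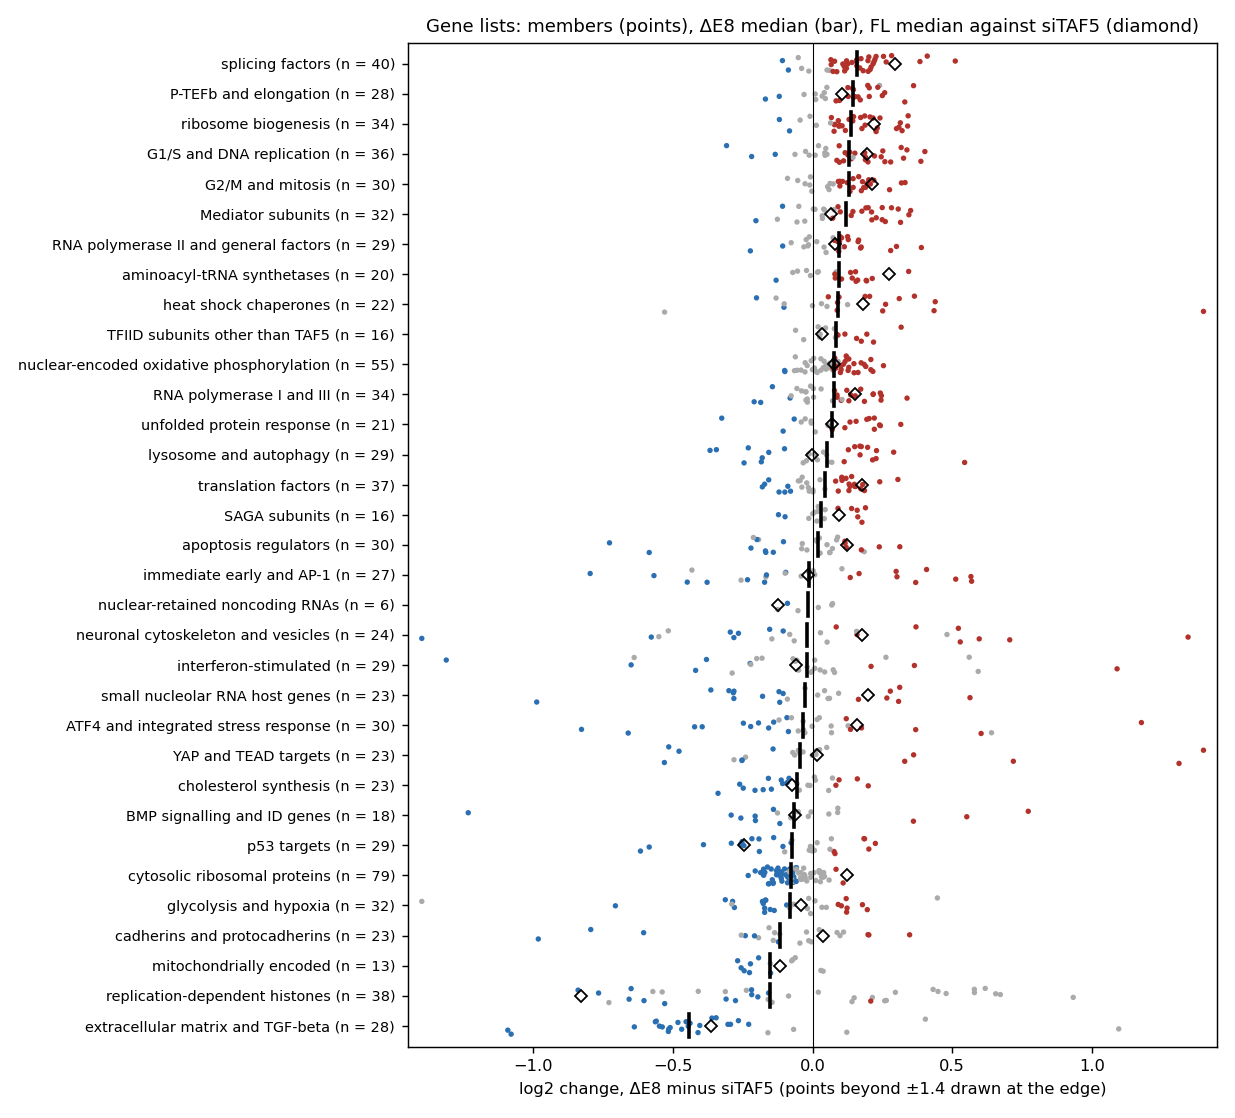
Log2 difference ΔE8 minus siTAF5 (horizontal axis) of the measured members of 33 gene lists, ordered by median, with red points called higher, blue called lower and grey not called. Black bars are ΔE8 medians and diamonds FL medians against the same siTAF5 libraries: the bars run from -0.44 for extracellular matrix to 0.16 for splicing factors, and the diamond lies far left of the bar for histones and right of it for ribosomal proteins.

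Set against the other groups as a whole, ΔE8 differed from FL in 7178 genes (37.0%), 3359 higher (17.3%) and 3819 lower (19.7%), of which 137 (0.705%) and 93 (0.479%) by at least 2-fold. It differed from siNT in 12091 genes (62.2%), 5987 higher (30.8%) and 6104 lower (31.4%). By the same test siTAF5 differed from siNT in 9650 genes (49.7%) and FL from siTAF5 in 9477 (48.8%). The median size of the log2 difference among called genes was 0.36 for ΔE8 against siNT and 0.22 for ΔE8 against FL. Comparisons that share libraries are not independent, and the counts were not tested against each other.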

How the data were processed

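Polyadenylated RNA of HEK293 Flp-In cells was measured in 12 libraries, 3 in each of 4 groups taken from the sample titles. The authors deposited expected counts per gene, that is estimated, unnormalized reads for each gene, judged from the values (46.517% of entries are not whole). Per the submitters' processing notes, the build was hg38 and the tools were Partek 10.0.23.0531, STAR 2.7.0f, cutadapt 1.18 and DESeq2, whose version and roles they omit. The quantifier, annotation and strand setting were not given in the sources used here. Of 32010 genes in that table, 8010 had no name.

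The design was written for counts, so the expected counts were rounded, which moved no library total by more than 91.27. Genes were kept by filterByExpr (minimum count 10; 19424 left), scaled with TMM factors and fitted over all 12 libraries in edgeR 4.0.16 (quasi-likelihood, one mean per group, no block; R 4.3.3, limma 3.58.1), with a common biological coefficient of variation of 2.82%. Tests were two-sided with Benjamini-Hochberg adjustment over all genes and a threshold of 0.05. The fit was tested on simulated data. An SE is the log2 difference divided by the square root of F. CPM use the scaled library sizes, except where given by library total. The smallest library had 41.8 M counts, and replicates of a group differed by more than counting error (chi-square per degree of freedom 2.6 to 5.14), so no counting intervals are given. The same replicate numbers did not deviate together.

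Named genes followed a rule, which began with TAF5. Then came the 12 largest rises and falls among called, non-overlapping genes with a symbol whose average log2 CPM was 2 or more. To these were added the 6 each way that also differ from FL and the 4 members of each list with the smallest adjusted p. Any TFIID, SAGA, RNA polymerase II or general factor subunit was named too. The lists (33, with 1015 of 1020 symbols found) were written from general knowledge. Members and lists were chosen with earlier results of these data known. Alternatives were other scaling, no filter, DESeq2 1.42.0, a fit of the compared groups alone, a replicate block and leaving out each library of the groups compared.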

Additional observations from a re-analysis of the deposited data

Results flagged for a closer look

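For 6 named genes, ΔE8 and FL changed from siTAF5 by amounts that differed by at least 1 log2 unit, which is the ΔE8 minus FL difference, and the edgeR test called each. BST2 had a difference of -1.16 (edgeR adjusted p = 8.96e-07): it fell in ΔE8 and did not pass in FL (-0.15 log2). PCDH19 had -1.41 (edgeR adjusted p = 5.83e-12), lower than siTAF5 in ΔE8 and higher in FL. The histone genes H1-2 (1.67, edgeR adjusted p = 2.84e-15), H2AC18 (1.92, 3.23e-12) and H2AC19 (1.42, 3.32e-10) fell in both add-backs and further in FL. NEAT1 had 1.13 (edgeR adjusted p = 1.08e-10), with a fall in FL (-1.26) and no call in ΔE8. The FL and ΔE8 cells differed in induction dose as well as in isoform, and dose and isoform cannot be told apart.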

How the results depend on the processing

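No named gene had opposite signs in the main fit and an alternative where either of these called it. Signs of genes called in neither were not compared. Of 205 named genes, 175 were called in ΔE8 against siTAF5 and 161 of these kept their call under every alternative. The 14 that lost it somewhere were TAF4, TAF15, SUPT3H, SUPT20H, SGF29, ATXN7L3, POLR2E, POLR2F, POLR2G, GTF2A2, GTF2E1, GTF2E2, GTF2F2 and OIP5-AS1. MNAT1, NEAT1 and TUG1 were called under at least 1 alternative. Genes called in all numbered 6884 to 7195 when 1 ΔE8 or siTAF5 library was left out and 7069 to 8092 under the other alternatives. Genes at least 2-fold higher were 187 without the filter on low counts, and genes at least 2-fold lower were 116 with the DESeq2 test. The replicate numbers did not pair the libraries: same-numbered siTAF5 and ΔE8 libraries deviated with r of -0.051, -0.001 and 0.013. With the replicate number as a block 8092 genes were called, 4001 higher and 4091 lower, and NEAT1 passed (edgeR adjusted p = 0.00293), as it did without the filter (0.0118). List medians kept their sign under every alternative for 28 of 33 lists. The exceptions, all close to 0, were small nucleolar RNA hosts, interferon-stimulated, neuronal, apoptosis and nuclear-retained RNAs. Oxidative phosphorylation genes called higher numbered 19 with library totals alone. Low counts limit the genes with an average log2 CPM under 0, which hold most of the 2-fold changes.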

Other observations

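Some genes below the average level required for naming changed by large factors, and were picked here after their values were seen. STMN4, a neuronal relative of the microtubule destabiliser stathmin (chr8:27235308-27258420), had 0.362, 0.369 and 0.421 CPM in siTAF5, 4.97, 5.38 and 5.44 in ΔE8 and 6.38, 5.81 and 6.1 in FL (log2 change 3.76 with SE 0.137, edgeR adjusted p = 3.63e-13). ACTBL2, an actin-like gene (chr5:57480018-57482811), had 1.32, 1.41 and 1.09 CPM in siTAF5, 6.12, 4.99 and 5.86 in ΔE8 and 5.59, 4.98 and 5.92 in FL (log2 change 2.15 with SE 0.123, edgeR adjusted p = 3.51e-10). XRCC6P1, a pseudogene of the DNA repair gene XRCC6 (chr10:93206857-93209627), had 0.681, 0.633 and 0.439 CPM in siTAF5, 4.81, 5.56 and 5.58 in ΔE8 and 6.51, 6.26 and 7.72 in FL (log2 change 3.19 with SE 0.155, edgeR adjusted p = 4.96e-11), and its reads can be shared with XRCC6. Each was low in all siTAF5 libraries and higher in all ΔE8 libraries.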
